A study of Mus musculus with 48 samples.

Results

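The genes described here are 53 genes of mitosis and the G2/M transition, chosen with earlier results of these data known. They were matched by symbol to Ensembl identifiers in the count table of a study of the kinase Lyn in mouse macrophages. All 53 were among the 13986 genes that passed the filter on low counts, of 49315 genes in the table. Bone marrow-derived macrophages were grown from 4 mice (2 male, 2 female) of each of 4 genotypes: total LynKO, LynBKO, LynAKO and wild type (WT). Lyn is a Src-family tyrosine kinase made as the splice isoforms LynA and LynB, and the names LynAKO and LynBKO give the isoform that was knocked out. All cells were grown for 7 days with M-CSF, the growth factor of macrophages, and rested overnight without it. They were then kept for 2 h in medium with 2 ng/mL LPS, a ligand of Toll-like receptor 4, with 20 ng/mL R848, a ligand of Toll-like receptor 7, or with neither (NT). PolyA RNA was sequenced, which gave 12 groups of 4 libraries. The title of the series names 2 subjects, the role of Lyn in the response to these ligands and in the proliferation of macrophages, and whether its isoforms differ in them.

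Mitosis begins when cyclin B and CDK1, freed from inhibitory phosphorylation by CDC25 phosphatases, phosphorylate their targets. Kinetochores built on CENP-A chromatin then attach chromosomes to the spindle, the spindle checkpoint holds back the APC/C ubiquitin ligase until all are attached, and CDC20 activates it so that cyclin B is degraded. Most of these genes are transcribed in G2 and M phase through MuvB complexes with B-MYB (Mybl2) and FOXM1, and are held down in resting cells by the DREAM complex, which binds the cell cycle genes homology region (CHR) near their start sites. Macrophages proliferate in response to M-CSF, and activation by Toll-like receptor ligands is known to slow their cycle.

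Lyn itself was 64.0 to 72.8 CPM (counts relative to the scaled library total) in the NT libraries of LynKO, 119 to 133 in LynBKO, 107 to 131 in LynAKO and 167 to 191 in WT. Libraries held 14974764 to 23321447 counts. The LynKO NT 4 and LynBKO NT 4 libraries held both Xist and Y-linked RNA at high levels. For some comparisons that use them, the count of called members is also given without both. Orders of means, medians, library ranges and results of other gene lists are given only with them. In LynBKO the sex labels of mice 2 and 3 are exchanged between NT and the ligand libraries. The 10 macrophage markers summed to 30900 to 33700 CPM in LynKO NT and 44400 to 52400 CPM in WT NT. The largest part of the sum was Lyz2 (13200 to 41500 CPM over all libraries), and no other marker passed 5390 CPM. In LynKO NT 1 marker was called higher and 3 lower than in WT, beside 5.43% and 4.47% of all genes. Summed markers of the other 7 cell types looked for (granulocytes and progenitors, erythroid, B lineage, T and NK, mast, dendritic, stromal and endothelial cells) were at most 27.0 CPM in any library. In NT, granulocyte and progenitor markers summed to 4.70 to 7.28 CPM in LynKO and 4.44 to 11.1 CPM in WT. The part of these differences in the results was not tested. In bulk RNA, fewer cells of a type and less RNA per cell cannot be told apart, so a member's level does not tell how many cells were in mitosis.

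Promoter sequence was matched for 42 of the 53 members. Shown are the 4 matched members with the largest rise with LPS in WT cells (Hmgb2, Mad2l1, Ckap2l, Melk) and the 4 with the largest fall (Cenpa, Kif23, Kif22, Kif20b), the opposite ends of the ligand responses given further on. Each runs 5′ to 3′ on the gene's strand, from 120 bases before to 25 bases after the RefSeq start, in build GRCm38.p6. Capitals mark the CHR core TTTGAA or its reverse complement TTCAAA, and CCAAT or its reverse complement ATTGG, the box bound by NF-Y.
Hmgb2, chr8:57511723-57511867, plus strand: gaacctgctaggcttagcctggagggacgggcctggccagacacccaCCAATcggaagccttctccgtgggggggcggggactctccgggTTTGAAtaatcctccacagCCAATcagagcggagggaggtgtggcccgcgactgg
Ckap2l, chr2:129297188-129297332, minus strand: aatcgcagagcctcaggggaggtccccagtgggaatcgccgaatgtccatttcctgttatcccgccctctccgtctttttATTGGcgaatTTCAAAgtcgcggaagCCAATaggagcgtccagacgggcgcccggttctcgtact
Mad2l1, chr6:66535101-66535245, plus strand: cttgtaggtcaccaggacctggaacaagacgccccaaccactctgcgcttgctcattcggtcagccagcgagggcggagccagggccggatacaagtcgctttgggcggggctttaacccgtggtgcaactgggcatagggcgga
Melk, chr4:44300797-44300941, plus strand: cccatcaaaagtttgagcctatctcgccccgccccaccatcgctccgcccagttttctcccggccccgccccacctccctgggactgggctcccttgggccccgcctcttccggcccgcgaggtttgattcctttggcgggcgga
Cenpa, chr5:30666766-30666910, plus strand: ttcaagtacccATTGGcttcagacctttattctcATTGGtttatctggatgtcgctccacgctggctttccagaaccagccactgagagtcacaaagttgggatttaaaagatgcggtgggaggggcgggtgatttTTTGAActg
Kif23, chr9:61946775-61946919, minus strand: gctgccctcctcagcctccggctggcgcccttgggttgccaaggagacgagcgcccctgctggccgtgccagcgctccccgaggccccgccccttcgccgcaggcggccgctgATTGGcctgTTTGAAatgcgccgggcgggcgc
Kif22, chr7:127042396-127042540, minus strand: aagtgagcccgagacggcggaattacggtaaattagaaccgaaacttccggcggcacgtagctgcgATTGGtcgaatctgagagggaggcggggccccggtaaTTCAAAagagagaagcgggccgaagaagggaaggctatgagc
Kif20b, chr19:34922238-34922382, plus strand: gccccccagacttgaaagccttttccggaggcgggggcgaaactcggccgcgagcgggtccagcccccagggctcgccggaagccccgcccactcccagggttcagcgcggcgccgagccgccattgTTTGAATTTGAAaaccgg
In the bases shown, Mad2l1 and Melk held neither motif, Kif20b held the CHR core alone, and the other 5 held both. No promoter is given for Spc24, Tpx2, Pbk, Ccna2, Kif20a, Esco2, Foxm1, Aurkb, Cdc25c, Dlgap5 and Stmn1.

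Counted on both strands, TTTGAA stood within the 250 bases before the start of 14 of the 42 members (33.3%). The share was 18.3% of the 27025 genes with a promoter sequence. These were not filtered on counts, whereas all members passed the filter, and shares of genes in this paragraph are of them. In the whole 300-base window, which runs 50 bases past the start, it stood in 32 of 42 (76.2%), beside 20.2% of genes. Most of the difference lay close to the start: 30 of 42 members (71.4%) and 5.72% of genes had a match whose first base fell within -50 to +45, a range chosen after the positions were seen. The plot of match positions shows this cluster around the start. By response to LPS in WT cells, 10 of 10 matched members that fell, 4 of 7 that rose and 18 of 25 that were not called had the CHR core in the whole window. Among those that rose, Nusap1 was the third without it, beside Mad2l1 and Melk. RefSeq starts differ from the gene positions given further on for some members. The bases shown for Mad2l1 end at 66535245, before its gene position begins at 66535390, so the bases around that position were not searched. CCAAT stood in that window in 8 of 10 that fell, 4 of 7 that rose and 17 of 25 that were not called. CCAAT stood in the 250 bases before the start of 29 of 42 members (69.0%) and 37.5% of genes, and the NF-kB motif in 1 of 42 (2.38%) and 1.36% of genes. Matches of different motifs overlapped in 1 member window. These are matches of letters, not binding.

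**Figure D1:**
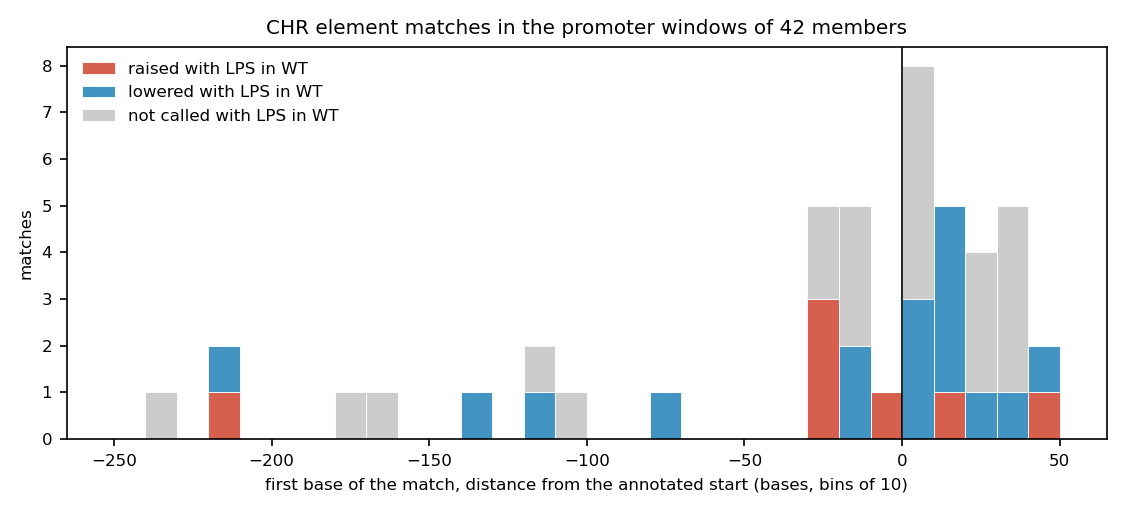
Positions of the CHR core (TTTGAA on either strand) relative to the RefSeq start in promoters of the members, in bins of 10 bases. The x axis gives the distance from the start in bases. Matches are stacked by the member's response to LPS in WT (raised, lowered or not called), and those of other genes are not drawn. The member matches gather around the start, where 71.4% of members and 5.72% of genes had one within -50 to +45.

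In untreated cells, 49 of the 53 members were called higher in LynKO than in WT at an adjusted p of 0.05 (edgeR's quasi-likelihood test), where 5.43% of all genes tested were called higher and 4.47% lower. The median log2 fold change of the members was 1.08 (quartiles 0.83 to 1.32), beside 0.005 for all genes. The LynKO and WT libraries did not overlap for 50 members, a separation that 7.37% of all genes showed in that direction. Summed over the members, the 4 libraries of a genotype ran from 716 to 814 CPM in LynKO, 459 to 582 in LynBKO, 449 to 519 in LynAKO and 359 to 471 in WT. Without the LynKO NT 4 and LynBKO NT 4 libraries 47 members were called higher. The 4 members that were not called were Hmgb2 (log2 fold change 0.12), Cenpa (0.04), Cdc25c (1.42 ± 0.48 SE, adjusted p = 0.065) and Cdkn3 (0.54).

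**Figure D2:**
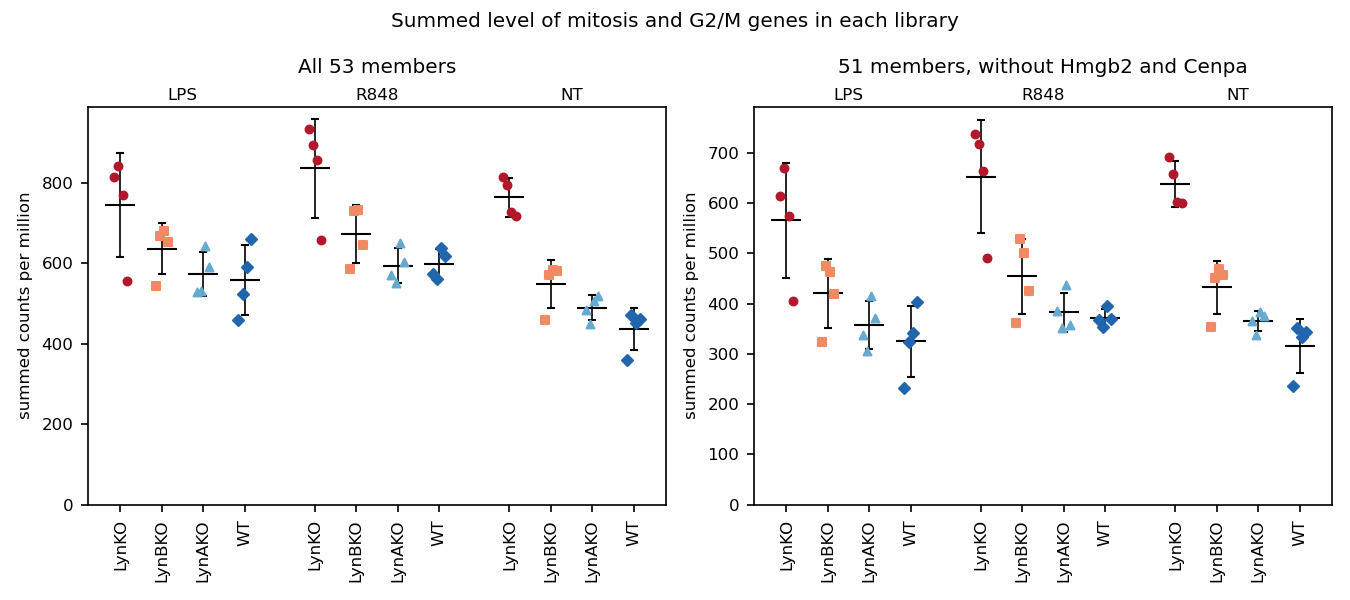
Summed CPM of the 53 members in each library (points) with the mean and SD of each group of 4, for LynKO, LynBKO, LynAKO and WT from left to right under each treatment. In NT the LynKO libraries (716 to 814 CPM) lie above all others, and with LPS or R848 the lowest LynKO library falls among those of other genotypes.

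Of the cyclin-CDK genes, 5 of 7 were called higher in LynKO NT, with a median log2 fold change of 1.08 over the 7. Ccna2, cyclin A2 of S and G2 phase, had 19.9, 19.4, 16 and 17.1 CPM in LynKO, 5.79, 10.7, 10.1 and 12.3 in LynBKO, 6.87, 6.21, 9.17 and 8.86 in LynAKO and 3.44, 9.33, 7.07 and 6.84 in WT. Ccnb1, cyclin B1, had 17.7, 19.1, 15.6 and 15.4 CPM in LynKO, 8.60, 12.7, 15 and 11.5 in LynBKO, 6.91, 7.72, 9.39 and 8.10 in LynAKO and 6.05, 8.23, 9.09 and 8.88 in WT. For both cyclins every LynKO library stood above every library of the other genotypes. The log2 fold changes over WT were 1.45 ± 0.23 for Ccna2 (adjusted p = 0.00024) and 1.08 ± 0.15 for Ccnb1 (adjusted p = 9.9e-05). Cdk1, the kinase of mitotic entry, moved less, with 17.3, 16.5, 15.8 and 18 CPM in LynKO and 9.72, 13.5, 13.1 and 11.7 in WT (log2 fold change 0.50 ± 0.12, adjusted p = 0.0093).

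All 5 mitotic kinases were called higher in LynKO NT, with a median of 1.39. Plk1, which drives centrosome maturation and mitotic entry, had 13.3, 12.4, 11.4 and 11.8 CPM in LynKO, 4.71, 6.98, 8.65 and 8.03 in LynBKO, 6.07, 6.88, 5.54 and 5.67 in LynAKO and 1.95, 7.01, 3.82 and 5.81 in WT. Every LynKO library was above the rest, and the WT 1 library was the lowest of the 16. Pbk, a mitotic protein kinase, had the largest log2 fold change of the 53 members, 1.72 ± 0.30 (adjusted p = 0.00073), with 5.99, 3.59, 3.61 and 6.67 CPM in LynKO and 2.14, 2.03, 0.879 and 1.10 in WT. Melk, a kinase of dividing cells, changed by 1.46 and Aurka, the spindle pole kinase, by 0.71. Aurkb, the kinase of the chromosomal passenger complex, changed by 0.48 ± 0.10.

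All 6 spindle checkpoint and APC/C genes were called higher, with a median of 0.83. Bub1b, the checkpoint protein BUBR1, had 25.2, 25.6, 22.6 and 21.5 CPM in LynKO and 9.21, 14.8, 13.6 and 14.6 in WT, groups that did not overlap (log2 fold change 0.87 ± 0.13). Cdc20, the activator of the APC/C, had 13.5, 12.6, 12.6 and 11.1 CPM in LynKO and 6.00, 6.57, 8.75 and 7.71 in WT (0.79 ± 0.13). Of the centromere and kinetochore genes 9 of 10 were called, among them Cenpf (1.44 ± 0.28) and Cenpe, the kinetochore motor (1.20 ± 0.16). The exception was Cenpa, the histone H3 variant of centromeres, with 69.9, 85.6, 78.0 and 66.4 CPM in LynKO and 78.2, 77.2, 72.5 and 65.8 in WT, groups that overlapped. Spc24 of the NDC80 complex was called (1.03 ± 0.32, adjusted p = 0.043) but fell past the threshold under 10 alternatives, with adjusted p up to 0.15.

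All 8 kinesins (median 1.02), all 9 spindle and microtubule proteins (median 1.10) and all 3 cytokinesis genes (median 1.02) were called higher. Kif11, the motor that separates spindle poles, had 17.6, 16.4, 13.2 and 14 CPM in LynKO and 4.61, 8.27, 6.15 and 6.73 in WT. Stmn1, the microtubule-destabilising stathmin, had 47.8, 45.5, 44.2 and 51.4 CPM in LynKO, 21.0, 30.1, 29.6 and 26.9 in LynBKO, 30.2, 22.8, 25.7 and 37.3 in LynAKO and 16, 23.5, 22.3 and 26.7 in WT. Anln, the cleavage furrow scaffold anillin, had 16.4, 14.4, 13.0 and 12.3 CPM in LynKO and 4.47, 5.64, 5.77 and 5.04 in WT. None of these 3 genes had an overlap between LynKO and WT, and their log2 fold changes were 1.26 for Kif11, 1.10 for Stmn1 and 1.43 for Anln. Per kilobase of exon, Stmn1 had the highest mean level of the 53 in LynKO NT (24.6 RPKM, which is CPM per kilobase of exon), followed by Hmgb2 (16.6) and Ccnb2 (13.0). In WT NT the order was Hmgb2 (15.4 RPKM), Cenpa (12.5) and Stmn1 (11.5).

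Among genes of chromosome structure and cohesion, Top2a, the topoisomerase that untangles chromosomes (chromosome 11, 98992943 to 99024189, minus strand), had 50.3, 47.2, 41.0 and 45 CPM in LynKO, 21.8, 30.8, 26.7 and 30.2 in LynBKO, 23.2, 22.8, 25.2 and 18.7 in LynAKO and 9.72, 23.3, 17.9 and 15.4 in WT. LynKO stood clear of all other libraries, and LynBKO and LynAKO overlapped each other and WT (LynKO over WT 1.48 ± 0.17, adjusted p = 1.1e-05). Esco2, the acetyltransferase that sets up cohesion in S phase, had 2.85, 2.60, 1.90 and 3.38 CPM in LynKO and 0.233, 1.30, 0.993 and 0.841 in WT (1.66 ± 0.38). Hmgb2, a chromatin protein of the high mobility group that binds DNA without sequence preference, had 52.2, 50.1, 47.6 and 49.9 CPM in LynKO and 45.2, 42.5, 45.3 and 52.0 in WT, with overlap. Both transcription factors were called higher, Foxm1 by 1.36 ± 0.20 and Mybl2 by 1.26 ± 0.31. Foxm1 had 9.36, 9.39, 7.41 and 7.15 CPM in LynKO and 1.68, 3.89, 4.24 and 3.22 in WT. Mybl2 had 3.38, 3.02, 3.02 and 4.30 CPM in LynKO and 0.512, 2.15, 1.34 and 1.72 in WT, so neither factor's groups overlapped.

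**Figure D3:**
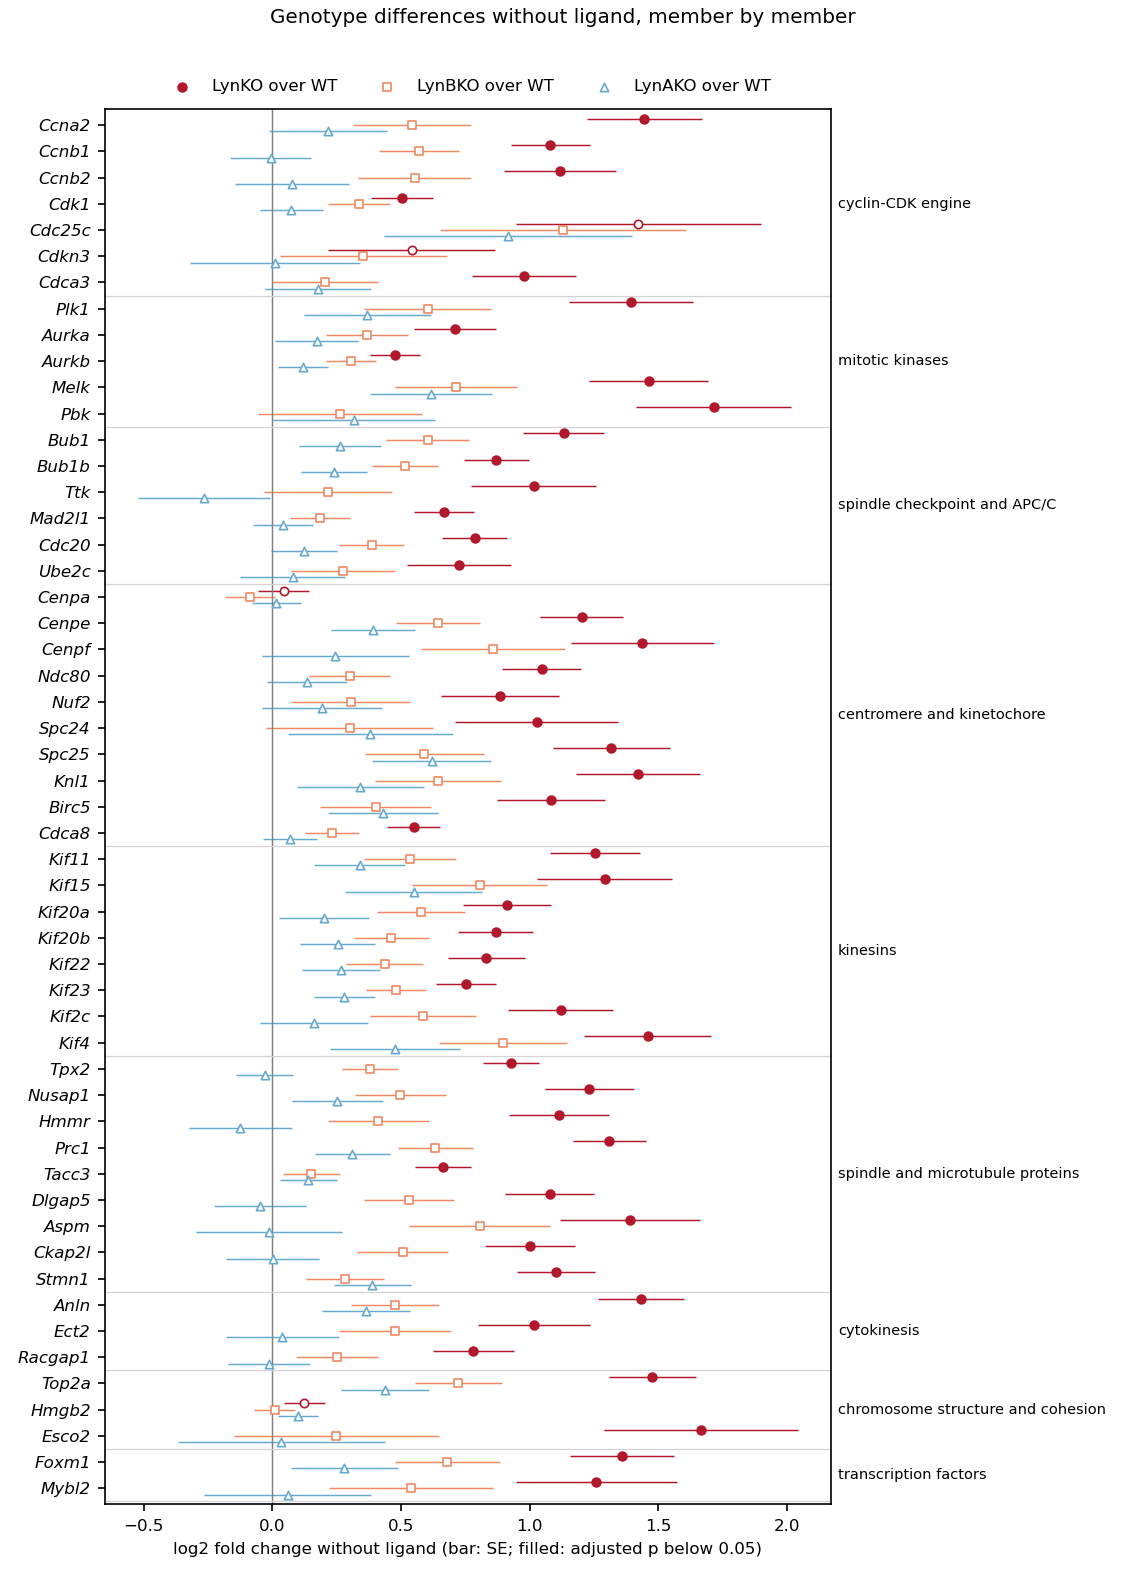
Log2 fold change of each member over WT in untreated cells, with SE, for LynKO, LynBKO and LynAKO, grouped by role. Filled points passed an adjusted p of 0.05 and open points did not. The LynKO points of 49 members are filled, and all LynBKO and LynAKO points are open.

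The isoform knockouts lay between LynKO and WT for most members, with LynBKO above LynAKO. In NT, the means of 39 of 53 members (73.6%) ran LynKO above LynBKO above LynAKO above WT, an order that 8.73% of all genes had. With LPS the count was 33 (8.77% of genes) and with R848 28 (7.36% of genes). LynKO had the highest mean for 53 members in NT (27.7% of genes), 50 with LPS (33.1%) and 51 with R848 (36.3%). LynBKO was above LynAKO for 46 members in NT, 45 with LPS and 44 with R848, where 51.4%, 50.1% and 49.2% of genes had that order. In NT, 14 members left the order. LynAKO was below WT for Ccnb1, Ttk, Tpx2, Hmmr, Dlgap5, Aspm and Racgap1, and LynAKO was above LynBKO for Pbk, Spc24, Spc25, Birc5, Stmn1 and Hmgb2. Cenpa was lowest in LynBKO, and its LynAKO mean stood above the WT mean. Neighbours in this order other than LynKO and LynBKO did not differ past the threshold for any member by edgeR after the filter on low counts.

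No member was called between LynBKO and WT in NT by edgeR, but 36 had an unadjusted p under 0.05. DESeq2 called 8, and edgeR with no filter on low counts called 16. By edgeR with the filter and an adjusted p under 0.05, 0.0286% of all genes were called higher and 0.0358% lower in LynBKO. Here and below, shares of genes called are for that setting. None is given for an unadjusted p, for DESeq2 or for no filter, so those member counts have no background beside them. The median log2 fold change was 0.48. Prc1, which bundles microtubules at the spindle midzone, had the smallest p, with a mean of 10.2 CPM in LynBKO and 6.54 CPM in WT (0.63 ± 0.15, adjusted p = 0.11). The LynBKO and WT libraries did not overlap for 18 members, and 3.66% of all genes were separated with LynBKO higher. Under LPS and R848 the median was 0.40 and 0.29, with 0 members called and 14 and 11 at an unadjusted p under 0.05 by edgeR, 0 called by DESeq2, and 3 and 2 by edgeR with no filter. Of all genes, 0.00715% were called higher and 0.0286% lower with LPS, and 0.0% either way with R848.

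LynAKO was closer still to WT, with medians of 0.19 in NT, 0.15 with LPS and 0.09 with R848. No member was called by edgeR or DESeq2 under any treatment (2 in NT by edgeR with no filter), and 8, 2 and 3 had an unadjusted p under 0.05 by edgeR in NT, LPS and R848. Of all genes 0.00715%, 0.00715% and 0.0% were called higher and 0.0215%, 0.0143% and 0.00715% lower. Spc25, a subunit of the NDC80 complex, had the smallest p in NT, at 4.89 CPM in LynAKO and 3.16 CPM in WT (0.62 ± 0.23, adjusted p = 0.99). LynBKO against LynAKO gave medians of 0.25, 0.21 and 0.26, with 0 members called by edgeR or DESeq2 in each and 13, 1 and 11 at an unadjusted p under 0.05, where 0.0% of genes were called. With no filter edgeR called 4 in NT and 1 with R848.

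The difference between LynKO and each isoform knockout was tested directly. Against LynAKO, 41 members were called higher in LynKO NT, where 2.04% of all genes were called higher and 1.34% lower, with a median of 0.85. Without the LynKO NT 4 and LynBKO NT 4 libraries 31 were called. Against LynBKO, 15 were called higher in NT, where 1.93% of genes were higher and 1.64% lower, with a median of 0.56, but 3 without those 2 libraries. The 15 were Ccna2, Cdca3, Pbk, Mad2l1, Ndc80, Kif11, Tpx2, Nusap1, Hmmr, Prc1, Tacc3, Stmn1, Anln, Top2a and Esco2. This count ran from 7 without LynBKO 1, and 8 without LynKO 1, to 27 without WT 1. The comparisons of LynKO share its 4 libraries, so their counts are not independent.

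With ligand, LynKO stayed above WT for most members. With LPS, 35 members were called higher and 1 lower in LynKO, beside 4.43% and 4.06% of all genes, with a median of 0.93 and 31 members without overlap (6.94% of genes). With R848, 39 were higher and 1 lower, beside 3.19% and 2.74%, with a median of 0.90 and 33 without overlap (6.49% of genes). The 36 calls with LPS were 20 without WT 1 and 22 without LynKO 2, and the 40 with R848 were 27 to 43 when 1 mouse was left out. Esco2 had the largest difference under both ligands (2.60 ± 0.56 with LPS, 2.68 ± 0.52 with R848). With LPS it had 1.67, 1.36, 0.828 and 1.61 CPM in LynKO and 0.156, 0.517, 0 and 0.143 in WT, groups far apart but at low counts. Pbk followed with 2.18 ± 0.35 and 1.71 ± 0.44.

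Some members called in NT missed the threshold under ligand. Ccnb1 was not called with LPS (0.74 ± 0.25, adjusted p = 0.073), where it had 20.3, 19.5, 16.8 and 10.2 CPM in LynKO and 5.39, 8.73, 11.4 and 15.1 in WT. The fourth LynKO library lay inside the WT range. Cdc20 (0.76, adjusted p = 0.058), Cenpf (1.06, adjusted p = 0.062), Foxm1 (0.73, adjusted p = 0.070) and Melk (0.70, adjusted p = 0.057) also missed the threshold with LPS. None of these 5 had an LPS response in LynKO that was called different from that in WT. Summed over the members, LynKO 4 was the lowest LynKO library with LPS (557 CPM) and with R848 (658 CPM), and the WT libraries reached 661 CPM with LPS and 637 CPM with R848. Cdk1 and Aurkb had larger LynKO over WT differences with ligand than in NT: 0.91 and 0.86 with LPS, 0.82 and 1.06 with R848. Whether these differ from the NT values is given by the response tests further on, and neither Cdk1 nor Aurkb passed them.

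Hmgb2 was the member called lower in LynKO under both ligands. With LPS it had 182, 146, 172 and 136 CPM in LynKO and 211, 186, 228 and 234 in WT. With R848 it had 156, 137, 158 and 145 CPM in LynKO and 174, 174, 217 and 222 in WT. Every LynKO library was below every WT library under both ligands, and the log2 fold changes were -0.42 ± 0.10 (adjusted p = 0.011) and -0.40 ± 0.10 (adjusted p = 0.029). The R848 call was lost on leaving out LynKO 1, 2 or 4 or WT 3 or 4, with adjusted p up to 0.094.

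Under ligand the isoform knockouts were again closer to WT than LynKO was. LynKO over LynAKO was called for 9 members with LPS (0.572% of genes called higher and 0.522% lower, median 0.74) and 22 with R848 (0.572% and 0.286%, median 0.86). The 9 were Spc25, Birc5, Cdca8, Kif11, Dlgap5, Stmn1, Anln, Racgap1 and Top2a. The LPS count was 0 without LynAKO 2, LynKO 2 or LynKO 3, and the R848 count was 1 without LynAKO 2 and 2 without LynKO 1. LynKO over LynBKO was called for 0 members with LPS (median 0.51, 30 at an unadjusted p under 0.05, 7 called by DESeq2, 19 by edgeR with no filter, 0.3% of genes higher and 0.329% lower) and 7 with R848 (median 0.58, 0.851% of genes higher and 0.872% lower). The 7 were Ccna2, Cdk1, Kif15, Tacc3, Stmn1, Esco2 and Foxm1, and leaving out 1 mouse gave 1 to 10. With the mouse number as a block, the R848 counts were 36 against LynAKO and 23 against LynBKO, in comparisons where same-numbered libraries deviated together.

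**Figure D4:**
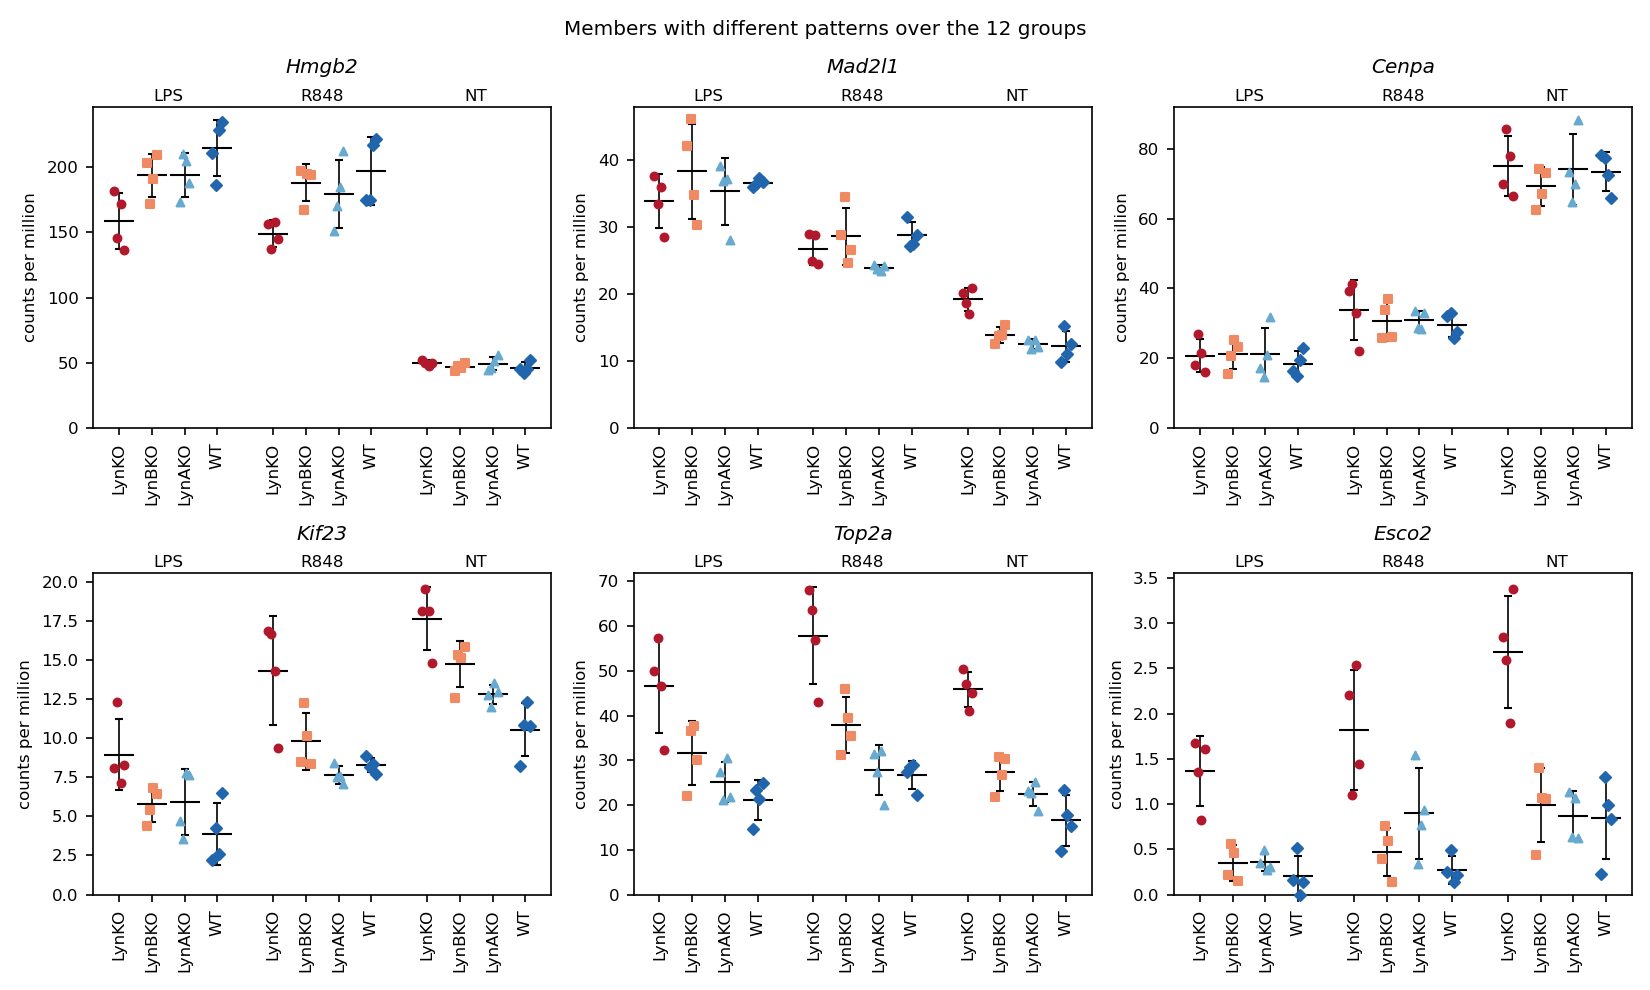
CPM of Hmgb2, Mad2l1, Cenpa, Kif23, Top2a and Esco2 in each of the 48 libraries (points), with the mean and SD of each group of 4, for LynKO, LynBKO, LynAKO and WT from left to right under each treatment. In NT, Top2a and Esco2 were called higher in LynKO than in WT, and Hmgb2 and Cenpa were not. With LPS, Hmgb2 rose and Cenpa and Esco2 fell in all 4 genotypes. Hmgb2 was also called lower in LynKO than in WT under both ligands.

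Ligand moved members in both directions. In WT cells, LPS raised 8 members and lowered 13 of 53, where 31.5% of all genes were called higher and 30.0% lower, so the members were not called more often than other genes. Of the 8, Hmgb2 (chromosome 8, 57511907 to 57515999, plus strand) changed most, with 211, 186, 228 and 234 CPM with LPS and 45.2, 42.5, 45.3 and 52.0 in NT (2.23 ± 0.11, adjusted p = 2.6e-12). Mad2l1, the checkpoint protein MAD2 (chromosome 6, 66535390 to 66547220, plus strand), had 36.0, 36.4, 37.3 and 36.7 CPM with LPS and 9.81, 15.3, 11.1 and 12.5 in NT (1.60 ± 0.12). Ckap2l, a spindle protein, had 6.49, 9.87, 14.1 and 12.0 CPM with LPS and 3.44, 4.10, 4.97 and 3.77 in NT (1.39 ± 0.20). Neither group overlapped the other for these 3 members. Melk (1.26 ± 0.27), Kif4, a chromosome-bound kinesin (0.98), Nusap1, a spindle-associated protein (0.97), Tpx2, the activator of Aurora A (0.64), and Prc1 (0.57) completed the 8.

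The 13 members lowered by LPS in WT were led by Cenpa, with 16.3, 15, 19.5 and 23 CPM with LPS and 78.2, 77.2, 72.5 and 65.8 in NT (-1.98 ± 0.13, adjusted p = 1.9e-10). Kif23, the kinesin of the central spindle, had 2.19, 4.24, 2.58 and 6.49 CPM with LPS and 8.23, 10.9, 12.3 and 10.7 in NT (-1.42 ± 0.24). Kif22, a chromosome-bound kinesin, had 1.80, 2.79, 2.00 and 4.42 CPM with LPS and 5.16, 6.73, 8.82 and 7.64 in NT (-1.35 ± 0.24). The LPS and NT libraries of these 3 genes did not overlap. Esco2 changed by -1.89 ± 0.68, Kif20b, a kinesin of cytokinesis, by -1.26, Ttk, the checkpoint kinase MPS1, by -1.12, Aurkb by -1.08, Bub1b by -1.04 and Ndc80, the outer kinetochore subunit, by -1.0. Dlgap5 (-0.84), Ect2, the activator of RhoA at the cleavage site (-0.81), Cdk1 (-0.69) and Cdca8, borealin of the passenger complex (-0.61), fell less. The calls of Dlgap5, Ect2, Esco2 and Prc1 were lost on leaving out some WT mice, with adjusted p of 0.095, 0.11, 0.11 and 0.21 at the highest.

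By role, LPS in WT raised 4 and lowered 1 of the 9 spindle and microtubule proteins, and raised 1 and lowered 3 of the 8 kinesins. It raised 0 and lowered 3 of the 10 centromere and kinetochore genes, and raised 1 and lowered 2 of the 6 checkpoint and APC/C genes. The 5 mitotic kinases and the 3 genes of chromosome structure and cohesion each had 1 call in either direction. Of the 7 cyclin-CDK genes and of the 3 cytokinesis genes 1 each was lowered, and neither transcription factor was called. Over all genes 31.5% were raised and 30.0% lowered, and no role was tested against these shares. The exon lengths of the classes had medians of 4368 bases (raised), 5386 (lowered) and 4346 (not called), beside 4002 for all genes. The macrophage markers moved too, with 4 of 10 called higher and 3 lower with LPS in WT, which summed to 31400 to 35300 CPM with LPS and 44400 to 52400 in NT. Called higher were 3 of 5 tested granulocyte and progenitor markers (10.1 to 17.5 CPM with LPS, 4.44 to 11.1 in NT), 4 of 5 dendritic markers (6.07 to 8.26 with LPS, 0.804 to 1.16 in NT) and 2 of 5 stromal and endothelial markers (8.93 to 20.1 with LPS, 2.17 to 7.10 in NT). The 1 tested B lineage marker was called lower. The part of these in the members' changes was not tested.

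**Figure D5:**
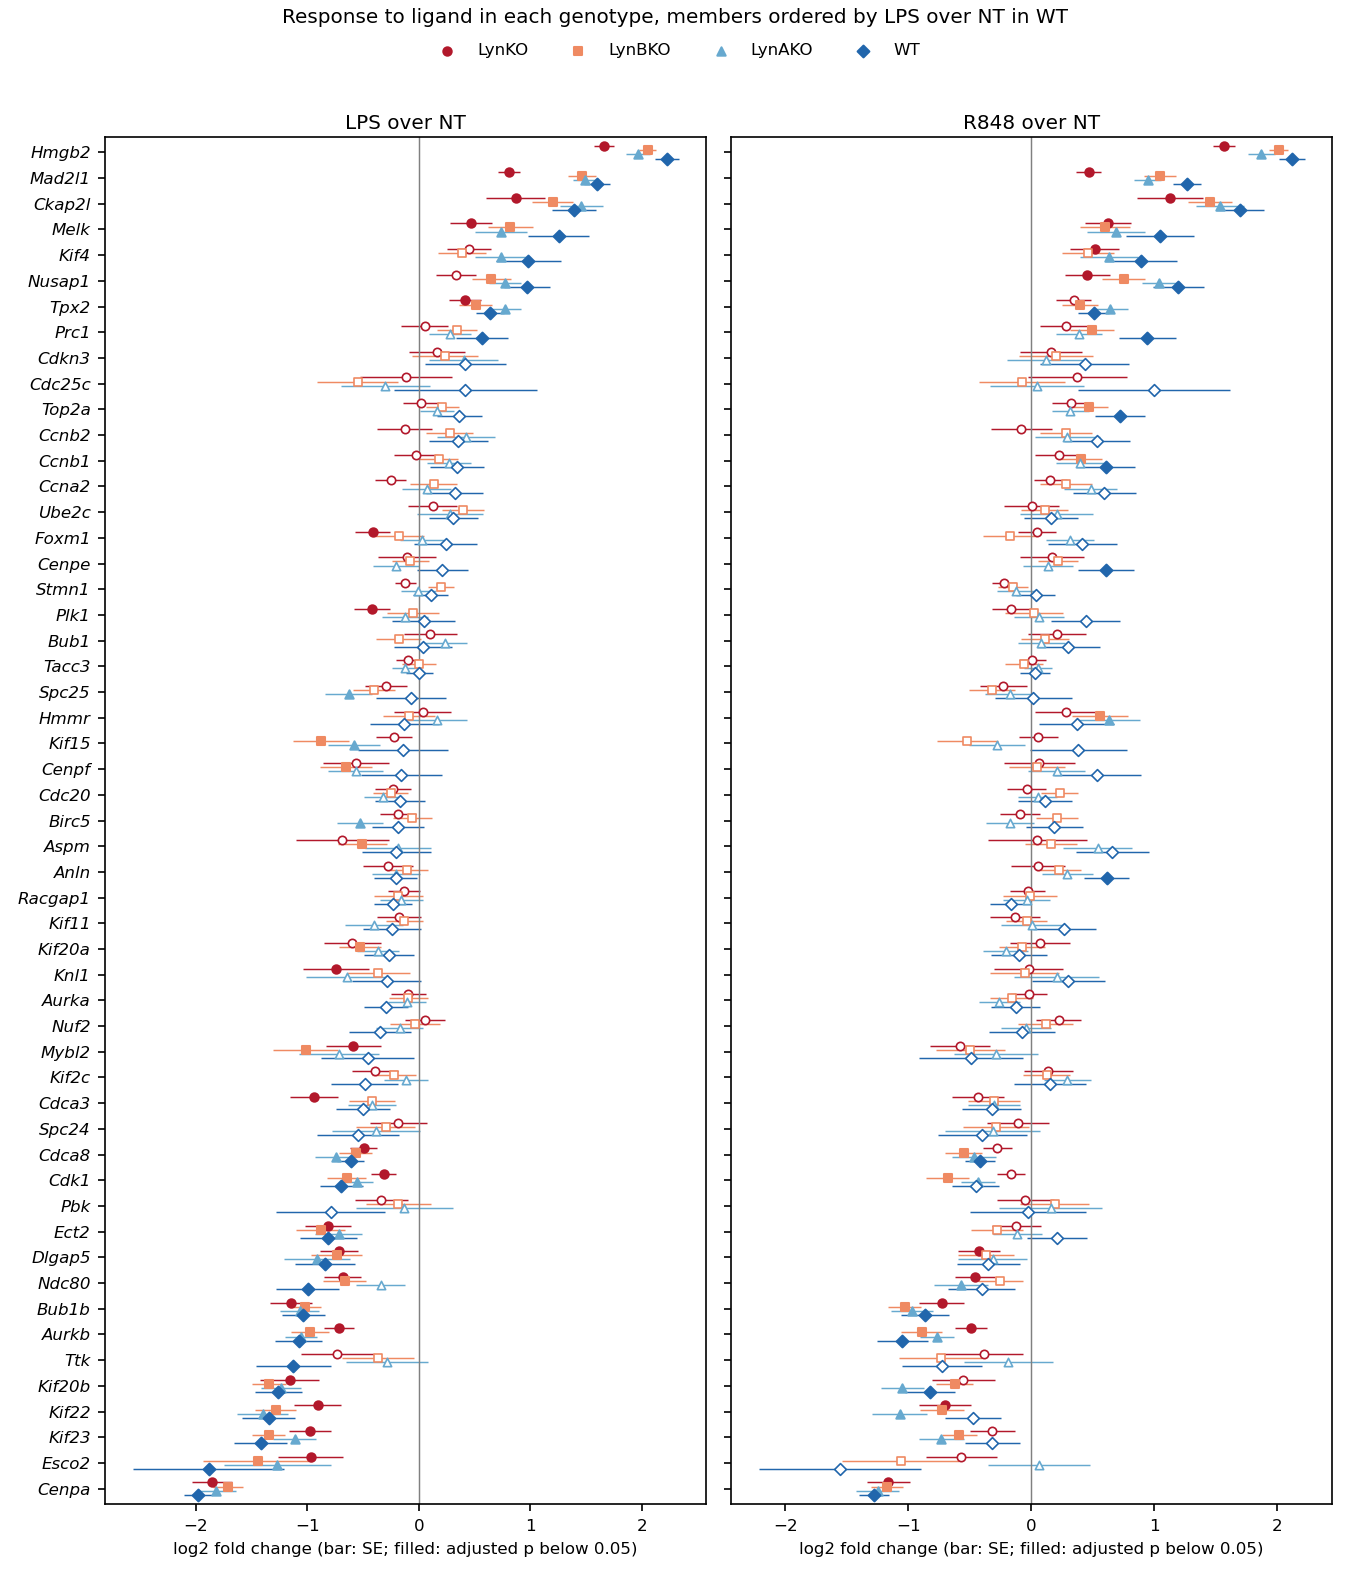
Log2 fold change of LPS over NT and of R848 over NT with SE (x axes) in LynKO, LynBKO, LynAKO and WT, for all 53 members ordered by LPS over NT in WT; filled points passed an adjusted p of 0.05. The 8 members raised by LPS in WT lie above 0 and the 13 lowered lie below 0 with LPS in all 4 genotypes.

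The same split was seen in each knockout, whose libraries the WT classes did not use. How many of all genes called with LPS in WT kept their direction in the knockouts was not counted. The split is therefore not shown to be particular to the members. All 8 members raised by LPS in WT had a positive log2 fold change in LynKO, LynBKO and LynAKO, with 5, 6 and 7 called and medians of 0.46, 0.74 and 0.77. All 13 lowered members had a negative one, with 12, 12 and 11 called and medians of -0.81, -0.98 and -1.06. Over all 53 members LPS called 5 higher and 17 lower in LynKO (31.0% and 30.7% of genes), 6 and 17 in LynBKO (33.9% and 33.4%), and 7 and 14 in LynAKO (30.4% and 30.3%). Called in the same direction in all 4 genotypes were Hmgb2, Mad2l1, Ckap2l, Melk and Tpx2 (higher) and Cenpa, Kif23, Kif22, Kif20b, Aurkb, Bub1b, Cdca8, Dlgap5, Ect2, Esco2 and Cdk1 (lower). No member was called in opposite directions in different genotypes. Without the LynKO NT 4 and LynBKO NT 4 libraries the counts were 3 higher and 16 lower in LynKO, and 6 and 16 in LynBKO.

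R848 gave fewer falls. In WT it raised 12 members and lowered 5, where 30.0% of genes were called higher and 26.7% lower. Hmgb2 had 174, 174, 217 and 222 CPM with R848 (2.12 ± 0.11), and Ckap2l had 13.6, 13.0, 13.9 and 11.4 CPM (1.70 ± 0.20), both clear of NT. The other raised members were Mad2l1 (1.27), Nusap1 (1.19), Melk (1.04), Prc1 (0.94), Kif4 (0.89), Top2a (0.72), Anln (0.61), Ccnb1 (0.60), Cenpe (0.60) and Tpx2 (0.51). The calls of Ccnb1, Cenpe, Kif4 and Anln were each lost on leaving out at least 1 WT mouse. Cenpa had 32.0, 33.0, 25.7 and 27.5 CPM with R848, below every NT library (-1.28 ± 0.12), and Aurkb (-1.05), Bub1b (-0.87), Kif20b (-0.83) and Cdca8 (-0.42) were also lowered.

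In the knockouts R848 called 6 members higher and 6 lower in LynKO (28.4% and 27.0% of genes), 10 and 8 in LynBKO (31.3% and 32.2%), and 8 and 9 in LynAKO (29.0% and 26.9%). Hmgb2, Mad2l1, Ckap2l, Melk and Nusap1 were raised and Cenpa, Aurkb and Bub1b lowered in all 4 genotypes. In LynKO the 12 calls became 20 with the mouse as a block, and 9 without the LynKO NT 4 and LynBKO NT 4 libraries. Kif23 had R848 log2 fold changes of -0.32 in LynKO and -0.32 in WT, which were not called. Those of -0.58 in LynBKO and -0.73 in LynAKO were called. Its R848 response was not called different from that of WT in any knockout.

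LPS and R848 were compared with each other directly. Mad2l1 was higher with LPS in all 4 genotypes, by 0.35 in LynKO, 0.42 in LynBKO, 0.55 in LynAKO and 0.33 in WT. In WT it had 36.0, 36.4, 37.3 and 36.7 CPM with LPS and 31.4, 27.1, 27.5 and 28.9 with R848, without overlap. Cenpa was lower with LPS in all 4, with log2 fold changes of -0.70 in LynKO, -0.54 in LynBKO, -0.57 in LynAKO and -0.70 in WT. In all, 1 member was higher and 3 lower with LPS in LynKO (9.73% and 6.13% of genes), 2 and 7 in LynBKO (14.2% and 12.3%), 1 and 2 in LynAKO (9.7% and 7.92%), and 1 and 5 in WT (10.9% and 10.0%). Besides Cenpa, the lower members in WT were Kif23 (-1.10), Ect2 (-1.02), Kif22 (-0.87) and Anln (-0.82), and in LynKO Ect2 (-0.69) and Kif23 (-0.66). In LynBKO they were Kif23 (-0.76), Kif20b (-0.72), Cenpf (-0.70), Aspm (-0.67), Kif22 (-0.56) and Cdc20 (-0.48), and in LynAKO Cenpf (-0.77). Stmn1 was the other member higher with LPS in LynBKO (0.35). With the mouse as a block the 4 calls in LynKO became 14 and the 3 in LynAKO 9. In LynKO the count was 0 without LynKO 1 or 3, 2 without LynKO 2 and 14 without LynKO 4. It was 5 in LynBKO without LynBKO 2 or 3, 1 in LynAKO without LynAKO 3, and 3 in WT without WT 3.

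The response to ligand differed from that of WT for 1 member, Mad2l1, in LynKO. Its LPS response was smaller by 0.77 on the log2 scale (-0.77 ± 0.16, adjusted p = 0.032) and its R848 response by 0.76 (-0.76 ± 0.16, adjusted p = 0.027). In LynKO it had 37.6, 33.4, 35.9 and 28.5 CPM with LPS, 29.0, 24.9, 28.7 and 24.5 with R848 and 20.2, 18.7, 17.1 and 20.8 in NT. In WT it had 36.0, 36.4, 37.3 and 36.7 CPM with LPS, 31.4, 27.1, 27.5 and 28.9 with R848 and 9.81, 15.3, 11.1 and 12.5 in NT. The NT libraries of LynKO all stood above those of WT, while the ligand libraries overlapped. Of all genes, 0.0501% were called lower and 0.0501% higher in the LPS response, and 0.107% and 0.0858% in the R848 response. Both calls were lost without the LynKO NT 4 and LynBKO NT 4 libraries (adjusted p = 0.070 and 0.065) and on leaving out LynKO 1, 2 or 4 or WT 1, 3 or 4, with adjusted p up to 0.25. Hmgb2 came next, with -0.55 ± 0.14 for LPS (adjusted p = 0.090) and -0.51 ± 0.14 for R848 (adjusted p = 0.14). In LynBKO and LynAKO no member's response was called by edgeR or DESeq2, with 0 or 1 member per comparison at an unadjusted p under 0.05 by edgeR.

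Other genes of mitosis were mostly higher in LynKO NT too. The lists used here were chosen with earlier results of these data known, so they are not independent support. Of 67 tested genes of a list of further mitosis genes, 42 were called higher in LynKO NT than in WT, with a median of 0.85, and the other 25 were not called, beside 5.43% of all genes called higher and 4.47% lower. The largest changes were those of Kntc1, of the kinetochore RZZ complex (1.77 ± 0.33), Cenpk, a kinetochore subunit (1.74 ± 0.44), and Depdc1a (1.64 ± 0.31). All were at low counts, with WT NT means of 1.16, 0.588 and 0.698 CPM. With LPS in WT, 8 of the 67 were higher and 27 lower, beside 31.5% and 30.0% of all genes. Mki67, the proliferation marker Ki-67, averaged 319 CPM with LPS and 27.9 CPM in NT (3.53 ± 0.18). The list's falls were led by the kinesins Kif24 (-2.75 ± 0.45) and Kif18a (-1.90 ± 0.52) and the condensin subunit Ncapg2 (-1.96 ± 0.17). Kif24 and Kif18a were at low counts, with NT means of 2.04 and 1.82 CPM, and Ncapg2 averaged 77 CPM in NT. Of 40 regulators of G2/M and of cell cycle transcription, 9 were higher and 1 lower in LynKO NT. Among the higher were the repressor E2f7 (2.18) and the checkpoint kinase Chek1 (1.17), with WT NT means of 0.522 and 0.645 CPM. Gadd45a was lower (-0.83). With LPS in WT, 11 of the 40 were higher and 11 lower, no larger a share than the 31.5% and 30.0% of all genes. The largest rises were those of the stress genes Gadd45b (4.87) and Gadd45a (2.99) and the CDK inhibitor Cdkn1a (2.82), and the largest falls those of Cdc25b (-2.31), Chek2 (-1.71) and Wee1, the kinase that inhibits CDK1 (-1.41).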

How the data were processed

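Macrophages of 16 mice, each treated 3 ways, gave 48 libraries of polyA RNA read in pairs, and the labels call them biological replicates from separate mice. The authors deposited raw counts per Ensembl gene, made per the submitters' processing notes with Trimmomatic 0.36, STAR 2.5.2b, Subread 1.5.2 and DESeq2 on GRCm38. They also deposited variance-stabilised log2 values, which were not used for tests. Whether counting used strand, and with which annotation, is not given in the sources used here. Reads may be shared by 8 members (Ccna2, Cdc20, Cdca8, Kif20a, Kif4, Nusap1, Prc1, Tacc3) that overlap another tested gene.

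The function filterByExpr, run with the 12 groups, removed genes of low counts (minimum 10 per library, 15 in all). Scaling was by TMM and testing by edgeR 4.0.16 (quasi-likelihood, R 4.3.3), and p-values were adjusted by Benjamini and Hochberg over all 13986 genes of a comparison, with a threshold of 0.05. The 36 comparisons were 12 of ligands (12 libraries of a genotype), 18 of genotypes (16 libraries of a treatment) and 6 of responses (all 48). The main ligand and response tests had no term for the mouse, so libraries of the same mouse were treated as independent. CPM use TMM, except those of the cell-type markers, which are relative to the library total without scaling. RPKM divide CPM by exon length, and ± is an SE. The code was tested on simulated data with known fold changes. Alternatives were DESeq2 1.42.0, RLE scaling, no filter, a replicate block, sex as a covariate, 1 model of all libraries and each mouse left out.

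Members, role groups, marker lists and pathway lists were chosen with earlier results of these data known. All members could be named, those with library values being a set list and up to 5 each way with the largest change per comparison. Of the other lists, up to 3 genes each way are named. The number of a library was taken as the mouse within a genotype. Same-numbered libraries deviated together (correlations of 0.11 to 0.42 over ligand pairs of LynKO, LynAKO and WT), but LynBKO NT did not pair with the LynBKO ligand libraries (-0.21 to 0.19). In LynBKO, runs with a block or with a mouse left out may therefore join libraries of different mice. Promoters are those of RefSeq for GRCm38.p6.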

Additional observations from a re-analysis of the deposited data

Results flagged for a closer look

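Values of 17 members and of the member sum were looked at in each group of 4 libraries, 216 group values in all, for a library that stood far from the other 3. Chance flags about 1 in 20 groups, and 5 were found. Cenpe had 4.46 CPM in WT LPS 1, where the other 3 libraries had 8.48 to 9.23. Hmgb2 had 167 CPM in LynBKO R848 2, where the others had 194 to 197. Mybl2 had 2.65 CPM in LynBKO NT 1, above 1.89 to 2.01 in the others. Ect2 had 6.07 CPM in LynAKO NT 4, above 4.77 to 4.93. The summed level of the 53 members was 459 CPM in LynBKO NT 1, below 571 to 582 in the others.

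The ligand response of Mad2l1 in LynKO differed from that in WT by a test of the difference itself, by -0.767 on the log2 scale for LPS and -0.756 for R848. Each of these calls was lost under 7 alternatives.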

How the results depend on the processing

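The 768 member results gave 13361 values under the alternatives, of which 12423 kept direction and side of the threshold, 749 lost and 189 gained a call, and 0 changed sign. Of the 49 members called in LynKO over WT in NT, 44 were called under every alternative, of 36 with LPS 20, of 40 with R848 24, and of 21 for LPS in WT 17. Counts of called members moved by over 1.5 times as follows; the cause was not tested.

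With no filter on low counts, LPS against R848 gave 5 in LynAKO (main 3) and 14 in LynKO (4). LynAKO against WT in NT gave 2 (0), LynBKO against WT 16 in NT, 3 with LPS and 2 with R848 (0 each), and LynBKO against LynAKO 4 in NT and 1 with R848 (0 each). LynKO against LynAKO gave 37 with LPS (9) and 40 with R848 (22), LynKO against LynBKO 32 in NT (15), 19 with LPS (0) and 29 with R848 (7), and the LPS response of LynKO 2 (1). DESeq2 gave 8 for LynBKO against WT in NT, 28, 7 and 21 for LynKO against LynBKO in NT, LPS and R848, 21 and 36 for LynKO against LynAKO with LPS and R848, and 2 for each LynKO response. With all 48 libraries in 1 model, LPS against R848 in LynBKO gave 4 (9), LynKO against LynAKO with LPS 22, and LynKO against LynBKO 2 with LPS and 17 with R848. Sex as a covariate gave 1 for LynKO against LynBKO with LPS. Without the LynKO NT 4 and LynBKO NT 4 libraries, LynKO against LynBKO in NT gave 3 and both LynKO responses 0. The CHR count before the start (14) was 32 in the whole window and 30 near the start, both chosen after seeing the data.

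With a replicate block, LPS against R848 gave 9 in LynAKO and 14 in LynKO, R848 against NT in LynKO 20 (12), LynKO against LynAKO 15 with LPS and 36 with R848, LynKO against LynBKO 2 with LPS and 23 with R848, and the LynKO responses 2 (LPS) and 3 (R848). Numbers pair mice within a genotype, except that LynBKO NT did not pair with the LynBKO ligand libraries. Across genotypes the same number is a different mouse of the same labelled sex, apart from LynBKO NT 2 and 3. In LynKO with WT (LPS and R848), LynKO with LynAKO or LynBKO (R848) and LynBKO with WT (LPS) all same-numbered libraries correlated over 0.1. No other count moved as far under the block.

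Leaving out each mouse in turn gave 1 to 4 for LPS against R848 in LynAKO, 5 to 9 in LynBKO, 0 to 14 in LynKO and 3 to 8 in WT. It gave 0 to 1 for LynBKO against WT in NT, 7 to 27, 0 to 2 and 1 to 10 for LynKO against LynBKO in NT, LPS and R848, 0 to 13 and 1 to 31 for LynKO against LynAKO with LPS and R848, 20 to 41 for LynKO against WT with LPS, and 0 to 1 for each LynKO response.

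At these depths a member such as Esco2, Cdc25c or Kif15, with few counts per library, can show only large differences.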

Other observations

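Pbk and Esco2, which had the largest log2 fold changes of LynKO over WT in NT, are neighbours on chromosome 14 (GRCm38), with Pbk at 65805837 to 65817822 on the plus strand and Esco2 at 65819038 to 65833994 on the minus strand. This was noticed after their values were seen.

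Mki67, which is not a member, was called higher in LynKO than in WT in NT (56.1 CPM and 27.9 CPM, log2 fold change 1.02 ± 0.16). With LPS it averaged 273 CPM in LynKO and 319 CPM in WT (-0.20 ± 0.10, not called), and with R848 214 CPM in LynKO and 259 CPM in WT (-0.27 ± 0.24, not called). Its R848 response in LynKO differed from that in WT by -1.28 ± 0.28 (adjusted p = 0.030, edgeR), and its LPS response by -1.23 ± 0.28 (adjusted p = 0.052). It was singled out after its values were seen.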
